A study of Homo sapiens with 32 samples.

Results

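The 944 regions described here carried a peak of histone H3 lysine 27 acetylation (H3K27ac) under palbociclib alone. They were selected by their peaks, as the regions of the comparison tables that overlapped, by 1 base or more, a broad peak in at least 3 of 4 PB libraries and in at most 1 of 4 libraries of each of RA, PB+RA and DMSO. They made up 944 of 92108 regions. Chromatin immunoprecipitation with sequencing (ChIP-seq) of the mark was done on SK-N-BE(2)C cells, an established human neuroblastoma line of the adrenergic (sympathetic neuron-like) type with amplified MYCN. All cells were cultured for 5 days, in 1 µM palbociclib (PB), in all-trans retinoic acid (RA), in both agents (PB+RA) or in the vehicle DMSO, with 4 ChIP libraries per group and the same number of input libraries. The 4 replicates of a group were different passages of this 1 line plated in independent experiments, so the spread between libraries is a spread between cultures of a single line.

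H3K27ac is laid down by the acetyltransferases p300 and CBP and marks active promoters and active distal enhancers, the elements that raise transcription from a distance. Palbociclib inhibits the cyclin D-dependent kinases, which phosphorylate the RB protein and so release E2F factors to carry cells from G1 into S phase. Retinoic acid acts through nuclear receptors that bind DNA as RAR and RXR pairs, and many neuroblastoma lines extend neurites and slow their division in its presence. A region with a peak under PB and none under PB+RA is therefore one where the mark passed the peak caller's threshold with the kinase inhibitor and did not do so when retinoic acid was added.

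The libraries held 64516 to 104392 broad peaks each, over 104 to 167 Mb, and their read depth is unknown here. All 10 adrenergic marker genes examined, among them HAND2, GATA3 and MYCN, had a peak within 1 kb of a start site in all 16 libraries. No library had one at the immune genes PTPRC, CD3E and MS4A1 or the endothelial genes PECAM1, KDR and TEK, while CD14 and the mesenchymal-type gene TWIST1 had one in all 16.

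To show what such elements look like, 200 bases are given for 4 of the 6 regions with a peak in 4 of 4 PB and 0 of 12 other libraries whose PB mean lay farthest above the other groups, and for the 2 regions near a start site with the largest such margin. Each window lies at the centre of the bases covered by peaks of the most PB libraries (4 of 4, or 3 for CNTN4, TMEM177 and TBC1D2B), is read from the forward strand of GRCh37, and has in capitals every match to any of 20 short motifs searched on both strands. The capitals mark the SOX-type motif ACAATG or its reverse complement, the CCAAT box CCAAT, and the E-boxes CAGCTG and CATCTG.
Chromosome 17 region, chr17:69729799-69729998: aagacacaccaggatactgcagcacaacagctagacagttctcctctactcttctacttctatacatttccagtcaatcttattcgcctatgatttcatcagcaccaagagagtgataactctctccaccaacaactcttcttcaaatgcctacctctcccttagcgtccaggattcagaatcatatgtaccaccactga
CNTN4 intron, chr3:2989991-2990190: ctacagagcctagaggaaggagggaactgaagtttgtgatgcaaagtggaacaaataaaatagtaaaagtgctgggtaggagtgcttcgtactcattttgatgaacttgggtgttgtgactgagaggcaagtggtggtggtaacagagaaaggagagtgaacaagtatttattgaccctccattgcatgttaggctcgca
TMEM177 region, chr2:120465347-120465546: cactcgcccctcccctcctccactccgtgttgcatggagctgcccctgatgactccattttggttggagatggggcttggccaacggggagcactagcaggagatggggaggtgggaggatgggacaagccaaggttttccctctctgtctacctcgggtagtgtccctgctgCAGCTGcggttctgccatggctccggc
TEX41 region, chr2:145800645-145800844: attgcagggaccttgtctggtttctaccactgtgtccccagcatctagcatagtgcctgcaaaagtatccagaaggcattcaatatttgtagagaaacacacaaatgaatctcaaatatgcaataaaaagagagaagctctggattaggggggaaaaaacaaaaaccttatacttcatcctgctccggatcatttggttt
TBC1D2B exon region, chr15:78290818-78291017: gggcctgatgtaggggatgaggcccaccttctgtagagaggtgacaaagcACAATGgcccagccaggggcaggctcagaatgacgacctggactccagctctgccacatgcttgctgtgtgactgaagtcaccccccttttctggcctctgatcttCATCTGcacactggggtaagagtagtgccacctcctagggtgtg
CPED1 upstream region, chr7:120624851-120625050: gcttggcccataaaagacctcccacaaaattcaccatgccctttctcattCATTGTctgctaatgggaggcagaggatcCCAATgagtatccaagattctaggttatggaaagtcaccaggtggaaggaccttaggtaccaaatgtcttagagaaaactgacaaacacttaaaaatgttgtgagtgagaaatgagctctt
Of these 6 windows, 3 held no match to any motif searched, and none held the GATA motif AGATAA or the retinoid receptor half-site AGGTCA.

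The first question was how firmly the peaks of these regions were placed in the PB libraries. A peak lay over 841, 867, 810 and 553 of the 944 regions in PB replicates 1 to 4, against 46 to 70 in the RA libraries, 61 to 167 in the PB+RA libraries and 95 to 136 in the DMSO libraries. PB replicate 4 stood below the other 3. Of the 705 regions with a peak in exactly 3 PB libraries, 391 lacked it in PB replicate 4, and 239 regions had one in all 4. No other library had a peak at 224 regions, 1 had at 400, 2 at 254 and 3 at 66. The strictest pattern, 4 of 4 PB and 0 of 12 other libraries, held for 45.

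**Figure D1:**
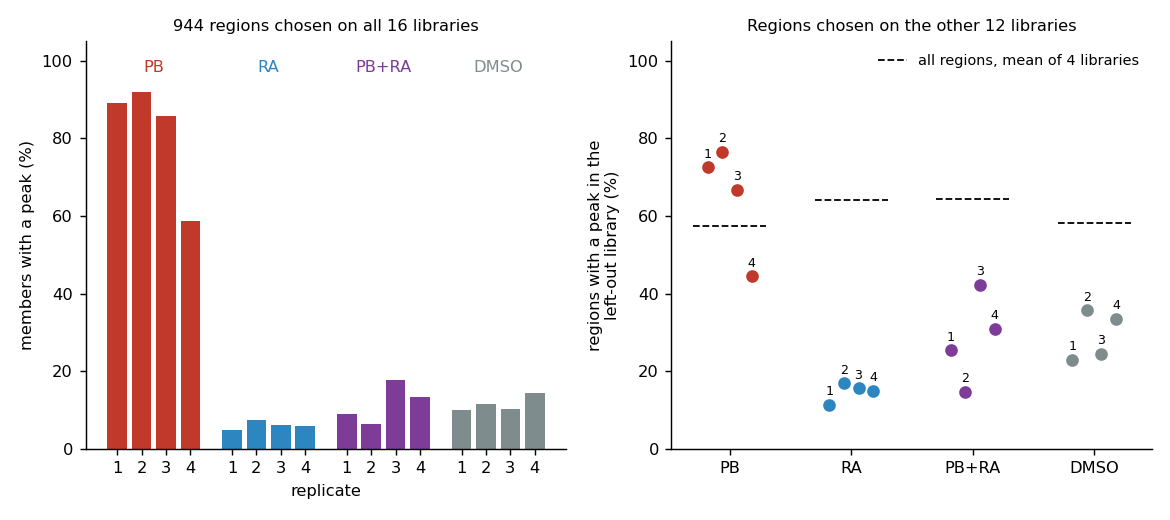
Left, share of the 944 regions with a broad peak in each of the 16 libraries (bars, percent). Right, for each replicate number, the regions were chosen again on the other 12 libraries and the share with a peak in the left-out library is plotted (points, numbered by replicate), beside the mean share of all regions (dashed). PB replicates 1 to 3 sit at 66.8% to 76.5% and PB replicate 4 at 44.5%, and the highest of the other libraries is PB+RA replicate 3 at 42.2%.

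The regions were also chosen without the library being read. For each replicate number, regions with a peak in 3 of 3 remaining PB libraries and at most 1 of 3 of every other group were taken, which gave 524, 510, 623 and 1014 regions. A peak was then found in the unused PB library at 72.5%, 76.5%, 66.8% and 44.5% of them for replicates 1, 2, 3 and 4. Over all regions the shares in the same 4 libraries were 56.8%, 59.3%, 59.7% and 53.5%, so in PB replicate 4 the chosen regions had a peak less often than all regions. In the unused RA libraries the shares were 11.3%, 16.9%, 15.6% and 14.99%. In the unused PB+RA libraries they were 25.4%, 14.7%, 42.2% and 31.0%, and in the unused DMSO libraries 22.9%, 35.7%, 24.4% and 33.5%, where 50.2% to 68.8% of all regions had a peak in these 12 libraries. Within each replicate number the PB library was the highest of the 4, and it was nearest to the others in replicate 4, where DMSO followed at 33.5%. Regions chosen in the same way for peaks under both PB and PB+RA held theirs more often, at 82.7% to 91.5% in the unused PB library of replicates 1 to 3 and 59.0% in that of replicate 4, and at 78.3% to 94.3% in the unused PB+RA library. The 4 rounds share libraries, so no test was made.

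Peaks over the regions were weaker than the run of their library. The median enrichment over input was 3.06, 3.13, 3.01 and 3.01 in PB replicates 1 to 4, against 3.56, 3.62, 3.34 and 3.31 over all peaks of the same libraries. The median −log10 q was 2.13, 2.24, 1.73 and 1.64 for the peaks over the regions and 3.10, 3.18, 2.22 and 2.07 for all peaks. In each of the 4 PB libraries, 30.1% to 32.5% of all peaks had a lower −log10 q than the median peak over these regions. With only peaks of a −log10 q of at least 5 read in every library, 203 regions followed the rule. This cut also removed weak peaks from the RA, PB+RA and DMSO libraries, so it can let in other regions. The 203 are therefore not a count of the regions described here that held, and their overlap was not read. The number of regions that followed the rule also moved with the libraries read. Without PB replicate 1, 2, 3 or 4, asking for a peak in 2 of the remaining 3, it was 2189, 1943, 2219 and 2517, and with a peak required in each of PB replicates 1 to 3 and replicate 4 ignored it was 630, an alternative chosen after the data were seen.

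The level of the mark was read from the authors' mean log2 concentration of each group, which is the log2 of the mean normalized read number over a region. These are group means with no value per library, so no SD or n is attached to them, and fewer cells carrying the mark cannot be told apart from less of the mark per cell. The median over the 944 regions was 4.84 in PB, 3.68 in RA, 3.98 in PB+RA and 4.01 in DMSO, or 28.7, 12.8, 15.7 and 16.1 normalized reads in the same order. Over all 92108 regions the medians were 5.09, 5.23, 5.28 and 5.08. Per kb of region, the 944 regions had a median of 29.5 normalized reads in PB and 16.7 in DMSO, against 21.6 and 22.6 over all regions. The PB mean was the highest of the 4 groups at 914 regions, which is the pattern the selection asked for.

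**Figure D2:**
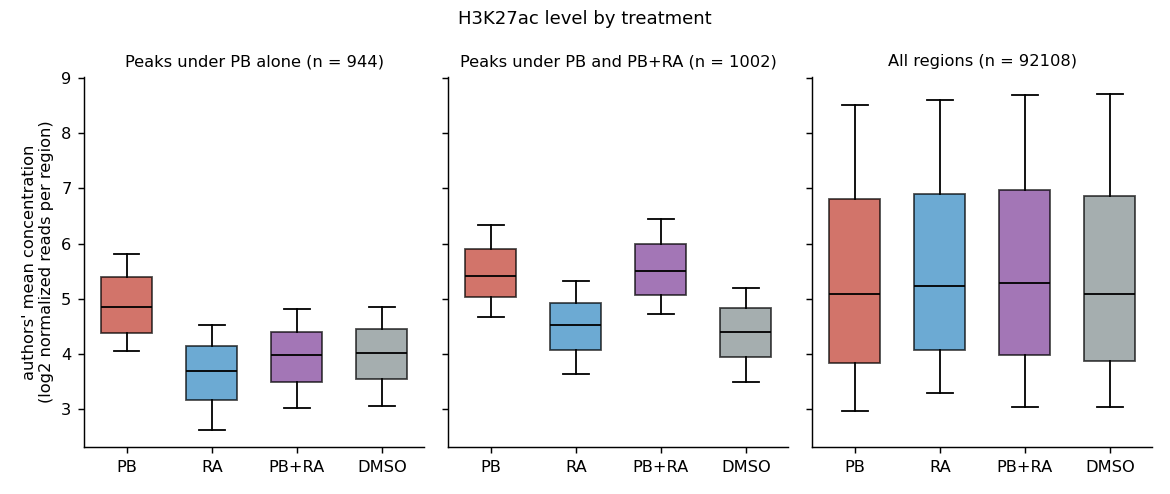
Authors' mean log2 concentration in each group over the 944 regions with peaks under PB alone, the 1002 with peaks under PB and PB+RA, and all 92108 regions (line, median; box, 25th to 75th percentile; whiskers, 10th to 90th). With peaks under PB alone the PB median is 4.84 and the PB+RA median 3.98, close to the DMSO median of 4.01, while RA is lowest at 3.68.

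Because the rule used PB as the group with peaks, differences that involve PB are given as a description only. The median PB minus DMSO difference was 0.84, and 728 of 944 regions (77.1%) had a difference over 0.5, a size at which 21% of all regions lay. Against RA the median difference of PB was 1.21, with 847 regions over 0.5 (19.1% of all regions), and against PB+RA it was 0.91, with 788 over 0.5 (18.2% of all regions). The remaining 216 regions differed from DMSO by 0.5 or less. An example is the widest region, of 4736 bases in an intron of RIMS2, which encodes a scaffold of the presynaptic active zone. It had 119 normalized reads in PB and 92.7 in DMSO, although only 1 of 4 DMSO libraries had a peak over it against 3 of 4 PB libraries. Presence of a peak and level therefore did not coincide at such regions.

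The rule put the same limit on the number of libraries with a peak in RA, PB+RA and DMSO. That is not an equal limit on level. A peak lay over 57401 to 61640 of all regions in the RA libraries and over 46241 to 57788 in the DMSO libraries. The rule also kept out regions with peaks in more than 1 library of any of these groups, which all regions include. Shares and medians beside all regions, the nearness of PB+RA to DMSO and the order of RA and DMSO can therefore depend on the choice. They are a description only. PB+RA lay close to DMSO, with a median difference of -0.09 and a span from -1.96 to 2.07. The sign of this median changed with the choice, as it was 0.0102 over the 45 regions of the strictest pattern and 0.021, 0.043 and 0.0063 for regions chosen without PB+RA replicate 1, 3 or 4. It was over 0.5 at 164 regions (17.4%), where 32.1% of all regions lay, and under -0.5 at 209 (22.1%), where 31.7% of all regions lay. RA lay lower, with a median RA minus DMSO difference of -0.34. That difference was under -0.5 at 349 regions (36.97%), against 21.5% of all regions, and over 0.5 at 45 (4.77%), against 27.9%. PB+RA minus RA had a median of 0.30, with 299 regions (31.7%) over 0.5 and 52 (5.51%) under -0.5, where 22.3% and 24.9% of all regions lay. RA had the lowest mean of the 4 groups at 537 regions, PB+RA at 219, DMSO at 186 and PB at 2. The choice by PB peaks made a lowest PB mean rare, and the same counts over all regions are not given. The lowest-mean counts are therefore a description only. The medians of the same differences over all regions were -0.02 for PB+RA minus DMSO, -0.01 for RA minus DMSO and -0.01 for PB+RA minus RA.

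**Figure D3:**
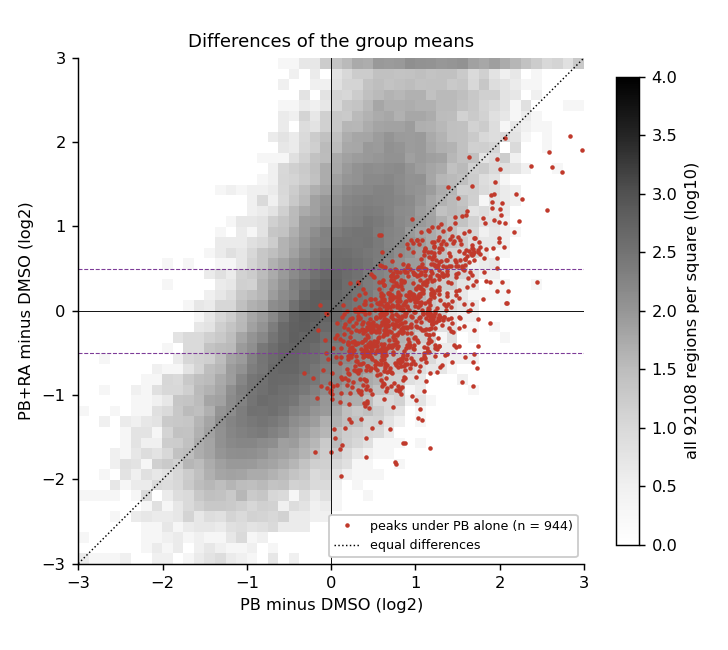
PB+RA minus DMSO (vertical) against PB minus DMSO (horizontal), as differences of the authors' mean log2 concentrations, for the 944 regions (red) and all 92108 regions (grey, log10 of the number per square, values beyond 3 drawn at the edge). The dotted line marks equal differences and the dashed lines 0.5 and -0.5. The red points spread around 0 on the vertical axis, where their median is -0.09, and to the right of 0 on the horizontal axis, where it is 0.84, and both axes share the DMSO means.

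At the 728 regions whose PB mean exceeded DMSO by over 0.5, the PB+RA mean was at or below DMSO at 336, above it by up to 0.5 at 228 and above it by more at 164. A missing peak under PB+RA thus covered regions at the DMSO level, regions with part of the difference and regions with nearly all of it. Among the 164, a region near HHEX, which encodes a homeobox factor, had 28.4 normalized reads in PB, 12.5 in RA, 28.1 in PB+RA and 6.78 in DMSO, so the PB and PB+RA means were nearly equal. A region 68974 bases from the start site of the DNA helicase gene HELB, over an exon of GRIP1, a scaffold of glutamate receptors, had 48.5, 18.3, 29.9 and 8.11 in the same order. At the other end, an intronic region of PPP1R9A, which encodes the neuronal actin-binding protein neurabin, had 20.5 in PB, 8.18 in RA, 4.88 in PB+RA and 19.0 in DMSO. The 5 regions with the largest PB+RA minus DMSO difference ranged from 1.83 to 2.07 and the 5 with the smallest from -1.96 to -1.68.

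The regions just inside and just outside the rule graded into each other. The 45 regions with a peak in 3 of 4 PB libraries and in 1 library of each other group had a median PB minus DMSO difference of 0.47, and the 45 with 4 of 4 PB and 0 of 12 other libraries had 1.12. Just outside, 2546 regions with 2 of 4 PB libraries and at most 1 of every other group had 0.57. The 378 regions left out only for a peak in 2 of 4 PB+RA libraries had a median PB+RA minus DMSO difference of 0.50, and the 384 left out only for 2 of 4 DMSO libraries had a median PB minus DMSO difference of 0.34.

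All regions gained under PB, with a peak in at least 3 PB and at most 1 DMSO library, numbered 4741. Of these, 944 (19.9%) had at most 1 library with a peak in RA and in PB+RA and form the set described here. A further 1002 (21.1%) had a peak in at least 3 PB+RA libraries and at most 1 RA library, and 1627 (34.3%) in at least 3 of both. Regardless of RA, 3061 (64.6%) of the gains had a peak in at least 3 PB+RA libraries and 1107 (23.3%) in at most 1. The group with the PB peak kept under PB+RA had the same limit on RA and DMSO peaks as the 944. The groups were split by PB+RA peaks, and those cells also received RA, so RA levels cannot be taken as independent of the choice. The median RA minus DMSO difference of the kept group was 0.12, with 111 of 1002 regions (11.1%) under -0.5, against -0.34 and 36.97% for peaks under PB alone. The kept regions were also wider, with a median of 1547 bases against 1001.

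Base composition moved with these differences. The 944 regions had a median GC content of 41.7%, against 39.7% for the 1002 kept regions, 47.9% for the 1917 regions with peaks under RA alone and 47.1% for all regions. Of all regions with a GC content under 35%, 2.16% belonged to the set, and of those between 50% and 60% only 0.418%. Over all regions the median PB minus DMSO difference was itself 0.60 under 35% GC and -0.45 between 50% and 60%. The set stood above it in both classes, at 1.10 and 0.60. The PB+RA minus DMSO difference over all regions had a median of 1.02 under 35% GC, where the 103 regions of the set had 0.10. Between 35% and 40% it was 0.86 over all regions and -0.02 over the 261 of the set. The RA minus DMSO difference was 0.61 over all regions under 35% GC and -0.32 over the set. The rule kept out regions with peaks in more than 1 RA or PB+RA library, which all regions include, so these gaps depend on the choice. The kept regions under 35% GC, chosen for PB+RA peaks, had a median PB+RA minus DMSO difference of 1.04. The part of base composition in the PB minus DMSO difference was not tested.

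**Figure D4:**
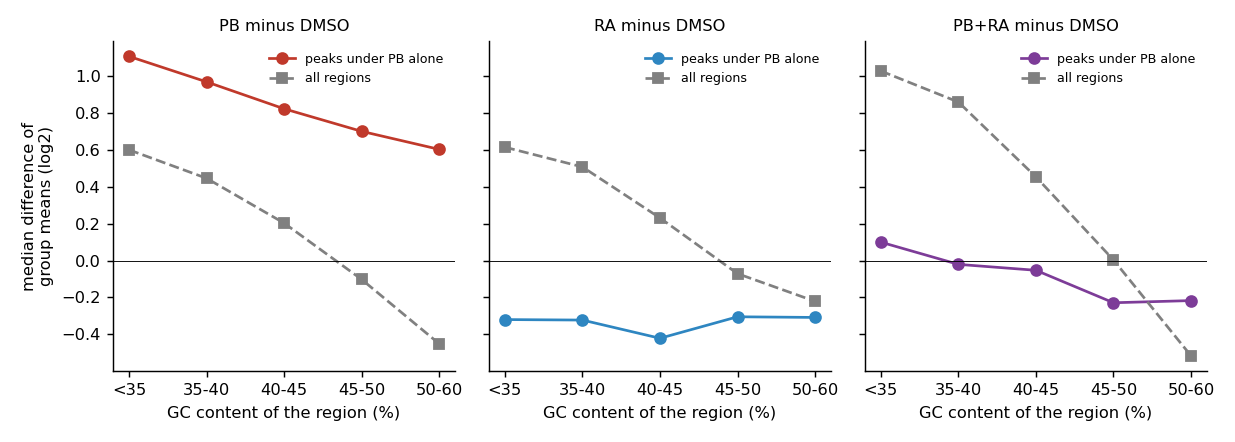
Median difference from DMSO of the PB, RA and PB+RA means (log2) by class of GC content, for the regions with peaks under PB alone (colour) and all regions (grey). The class of 60% GC or more, with 3 regions of the set, is not drawn. Over the 5 classes drawn, all regions run from higher to lower differences as GC content increases in each panel, while the set lies between -0.23 and 0.10 in PB+RA and between -0.42 and -0.30 in RA.

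Most of the set lay far from promoters. Within 3 kb of a protein-coding start site lay 36 of 944 regions (3.81%), against 6.19% of kept regions, 11.5% of regions with peaks under RA alone, 46.7% of the 26508 regions with a peak in all 16 libraries and 21.6% of all regions, and 6 spanned a start site. The median distance to a start site was 67228 bases, against 23108 over all regions, and 397 (42.1%) were more than 100 kb from any, against 21.5%. By their midpoint, 491 (52.0%) lay in an intron, 293 (31.0%) between genes, 120 (12.7%) in a non-coding gene and 40 (4.24%) in an exon. The shares of all regions were 53.5%, 24.5%, 11.4% and 10.7%, so the difference lay in the exonic and intergenic shares. Widths ranged from 229 to 4736 bases with a median of 1001, against 1727 over all regions. A region with a peak in all 16 libraries lay within 100 kb of 731 (77.4%), at a median distance of 30.5 kb.

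Chromosome 13 held the largest share, with 56 of its 2805 regions (2.00%), followed by chromosome 18 with 23 of 1385 (1.66%) and the X chromosome with 31 of 1946 (1.59%). Among chromosomes that held any, the smallest share was 8 of 3458 on chromosome 19 (0.231%). The median GC content of all regions was 41.7% on chromosome 13 and 55.8% on chromosome 19.

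Motifs were counted in the central 300 bases. The motif AGATAA, bound by GATA factors, which in this cell type belong to the adrenergic circuit, was present in 30.1% of the set, 35.4% of kept regions, 16.2% of regions with peaks under RA alone and 18.8% of all regions. Its letters are rich in A and T, so the share was read by GC content. Under 45% GC it was 33.7% of 652 regions of the set against 29.9% of all such regions, and at 45% or more 21.9% of 292 against 10.8%. The homeobox motif TAATTA was in 14.4% of the set and 9.42% of all regions, SOX-type ACAATG in 18.2% and 13.4%, and CCAAT in 40.5% and 31.9%. Under 45% GC these gaps were smaller, at 17.9% of the set and 16.5% of all regions for the homeobox motif, 20.1% and 18.7% for the SOX-type motif and 44.6% and 38.9% for CCAAT. At 45% or more they were 6.51% and 4.33%, 14.0411% and 9.57%, and 31.2% and 26.9%. The retinoid half-site AGGTCA was in 17.1% of the set, against 18.9% of all regions and 20.8% of regions with peaks under RA alone, and its direction differed by class, with 14.4% against 17.4% under 45% GC and 22.9% against 19.98% at 45% or more. The AP-1 motif TGANTCA was in 11.7% and 11.6%, the GC box GGGCGG in 2.65% and 13.7%, and the E2F motif GGCGGGA in 0.847% and 4.16%. A match describes the letters only.

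Among the 45 regions of the strictest pattern, both of the largest margins of the PB mean over the highest other group came from a domain upstream of DDX18, which encodes a DEAD-box RNA helicase. The gene names the position only. Of the domain's regions in the set, only the nearest, at 90254 bases, lay within 100 kb of the start site. The others lay 132647 to 276997 bases away and had no gene assigned. The domain held 13 regions, 6 of them in the set, and all 13 had a PB minus DMSO difference over 0.5, with a median of 1.97. Their median PB+RA minus DMSO difference was 0.42. The domain's other 7 regions include strong ones with peaks in every group. The largest of them, of 14592 bases, had 1345 normalized reads in PB, 272 in RA, 524 in PB+RA and 361 in DMSO. Peaks more than 80 kb upstream of the start site, over a window reaching 300 kb upstream, covered 48.6 to 63.4 kb in the 4 PB libraries, 11.7 to 16.7 kb in the RA libraries, 18.3 to 32.3 kb in the PB+RA libraries and 7.99 to 30.3 kb in the DMSO libraries. The PB libraries did not overlap with any other group in this measure, which includes the peaks that chose the 6 regions. The domain was picked after its values were seen and no share over other windows is given, so the separation is a description only.

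**Figure D5:**
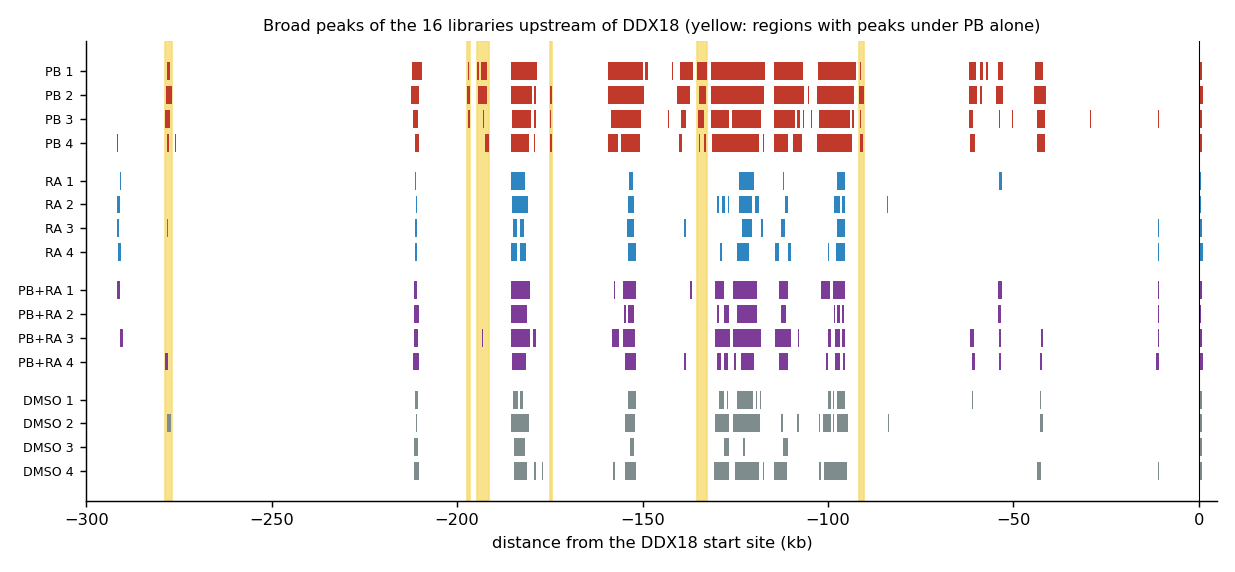
Broad peaks of each library (bars) by distance in kb from the start site of DDX18, with the regions with peaks under PB alone shaded. The PB libraries cover 48.6 to 63.4 kb beyond 80 kb upstream and the other 12 libraries 7.99 to 32.3 kb. The domain was picked after its values were seen.

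Among the 6, the region nearest DDX18, between genes, had the largest margin of all 944, at 2.05. Its enrichment over input was 3.53, 3.21, 3.92 and 3.27 in PB replicates 1 to 4, and it had no peak in the other 12 libraries. The means were 32.3 normalized reads in PB, 7.82 in RA, 7.56 in PB+RA and 5.96 in DMSO, so PB alone stood apart. A second had enrichments of 3.24, 3.28, 3.41 and 3.48, and means of 71.7, 16.7, 18.2 and 17.0 in the same order of groups. The region with the largest PB minus DMSO difference of all 944, at 2.98, lay farther along the same chromosome arm at chr2:118093653-118094718 (hg19, region starts counting from 0 as deposited). Its PB+RA mean was 11.5 normalized reads, against 24.2 in PB, 3.13 in RA and 3.07 in DMSO.

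The region with the highest PB mean lay 3177 bases from the start site of ZBTB16, which encodes the zinc-finger transcription factor PLZF. At chr11:113922929-113926586, it had 151 normalized reads in PB, 23.2 in RA, 37.8 in PB+RA and 35.5 in DMSO. Its enrichment was 3.75, 4.25, 3.05 and 3.12 in PB replicates 1 to 4 and 2.65 in DMSO replicate 4, the only other library with a peak there. The RA mean was the lowest and the PB+RA mean was near that of DMSO.

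Other regions with a peak in 4 of 4 PB and 0 of 12 other libraries included an intron of CNTN4, which encodes an adhesion molecule of axons. At chr3:2988570-2990936 it had enrichments of 3.46, 4.54, 3.14 and 2.80 in PB replicates 1 to 4 and means of 62.7 normalized reads in PB, 15.5 in RA, 20.2 in PB+RA and 20.1 in DMSO. An intron of TAB3, which encodes an adaptor of the kinase TAK1, had 61.8, 10.5, 22.4 and 15.8 in the same order, so its PB+RA mean lay between PB and DMSO. A region between genes at chr5:104967331-104969964, far from any start site, had 86.6, 16.9, 33.9 and 33.6. A region in the non-coding RNA gene PURPL had 52.7, 17.6, 14.3 and 20.4, and one in the non-coding gene TEX41 had 26.7, 7.17, 9.52 and 7.47. The RA mean was below the DMSO mean in 8 of these 10 regions, the exceptions being the region nearest DDX18 and one on chromosome 13, and the PB minus DMSO difference ran from 1.37 to 2.44 among them. Over the whole set, the RA mean was above the DMSO mean at 233 of 944 regions (24.7%), against 49.5% of all regions. The order of RA and DMSO can depend on the choice by peaks, so these counts are a description only.

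Near start sites, the largest margin was at TBC1D2B, which encodes a GTPase-activating protein for Rab proteins. The exonic region had 17.8 normalized reads in PB, 3.86 in RA, 5.88 in PB+RA and 7.36 in DMSO, and its enrichment of 6.82 in PB replicate 1 was well above the 4.62 and 4.32 of PB replicates 2 and 3, with 4.19 in DMSO replicate 1. The region 1892 bases from the start of CPED1 had 73.4, 27.2, 32.5 and 18.5 in the same order of groups. Next came regions at CASK, a scaffold kinase of synapses, at LRGUK, and at TNNI3K, a kinase gene of heart muscle. They had PB minus DMSO differences of 1.42, 1.04 and 1.55 and PB+RA minus DMSO differences of 0.33, -0.08 and 0.53. CDCA7L, NXNL2 and AOX1, an aldehyde oxidase gene, followed, with PB minus DMSO differences of 1.22, 1.48 and 0.82. At AOX1 the region spans a start site and its PB+RA mean of 15.5 normalized reads was below the 23.8 of DMSO.

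Each region was assigned to the nearest protein-coding start site within 100 kb, which need not be the gene it acts on. This gave 547 regions at 482 of 15006 genes (3.21%), and 10 genes had 3 or more. TLR4, the receptor for bacterial lipopolysaccharide, had 4 of its 6 regions in the set, and all 6 had a PB minus DMSO difference over 0.5. All 4 lie downstream of its start site, within an annotated read-through gene that also spans TLR4. At chr9:120532110-120533199 the enrichment was 3.6, 3.7 and 2.96 in PB replicates 1 to 3, and the means were 47.0 normalized reads in PB, 13.3 in RA, 10.5 in PB+RA and 14.1 in DMSO. The median PB+RA minus DMSO difference of the 4 was -0.28.

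UTRN, which encodes utrophin, and DMD, which encodes the related dystrophin, both link actin to the membrane and both had several regions in the set. UTRN had 4 of 19, in introns, with PB minus DMSO differences from 0.59 to 1.69 and a median PB+RA minus DMSO difference of -0.20. DMD had 3 of 30, also in introns, and 24 of its 30 regions had a PB minus DMSO difference over 0.5. The DMD region at chrX:33327127-33329042 had 45.2 normalized reads in PB, 7.1 in RA, 17.5 in PB+RA and 15.8 in DMSO. SLC38A11, of an amino acid transporter family, had 3 of 8, with differences of 1.00, 1.51 and 1.92, and all 8 of its regions lay over 0.5. MIPEP, a mitochondrial peptidase gene, had 3 of 5, with a median of 0.90.

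In the remaining genes with 3 regions the PB minus DMSO difference was smaller. The medians were 0.55 at PLCB4, a phospholipase C gene, 0.46 at TLE4, a Groucho-type corepressor gene, 0.35 at PDE1C, a calmodulin-dependent phosphodiesterase gene, 0.28 at BFSP2, a lens filament gene, and 0.23 at RIMS2. Their median PB+RA minus DMSO differences were all below 0, at -0.47, -0.19, -0.72, -0.66 and -0.95. Single regions departed from these medians, such as the one at chr7:32203093-32203588 near PDE1C, with a PB minus DMSO difference of 0.76 and a PB+RA minus DMSO difference of 0.50. In a run of 4 regions over 40.9 kb of an intron of PTPRT, a receptor phosphatase gene, the median PB+RA minus DMSO difference was -0.997, with a median PB minus DMSO difference of 0.91.

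Gene lists of neuronal and other roles were then read as counts, beside 3.21% of genes and 0.756% of the 72309 assigned regions overall. The list shares were not split by GC content. Of all regions, 1.75% between 35% and 40% GC and 1.54% between 40% and 45% belonged to the set. Kept regions lay at 584 genes, among them 7 axon and neurite, 3 postsynaptic, 4 vesicle and release, 5 ion channel and 2 matrix and junction genes. For axon and neurite genes, 7 of 40 had a region in the set (9 of 612 regions, 1.47%), and besides CNTN4 these were NTNG1, SEMA3A, ROBO1, ROBO2, CNTN1 and GAP43. NTNG1, a netrin-type guidance molecule, had 53.7 normalized reads in PB, 23.0 in RA, 25.9 in PB+RA and 19.2 in DMSO. SEMA3A, a repulsive guidance ligand, had 43.0, 12.8, 22.5 and 21.0. ROBO1, a receptor for Slit ligands, had 34.8, 11.6, 10.4 and 20.01, and ROBO2 had 31.9, 29.4, 18.3 and 24.97, where PB and RA were close.

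For synapses, 4 of 27 postsynaptic genes (5 of 310 regions, 1.61%) and 4 of 33 vesicle and release genes (6 of 293 regions, 2.05%) had one. CHRNA7, a nicotinic receptor subunit, had means of 25.5 normalized reads in PB, 8.90 in RA, 13.5 in PB+RA and 10.2 in DMSO. GPHN, which encodes the gephyrin scaffold, had 24.4, 7.76, 9.25 and 13.7 in the same order of groups. On the presynaptic side, PCLO, which encodes piccolo of the active zone, had 39.5, 9.70, 13.7 and 17.5, and SYT1, the calcium sensor of release, had 22.3, 15.3, 18.8 and 10.6. SYNPR had 16.6, 4.37, 8.64 and 5.18.

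Ion channel genes had a region in the set at 6 of 31 (7 of 413 regions, 1.69%). CACNA1D, an L-type calcium channel gene, had enrichments of 4.25, 4.35, 3.79 and 3.37 in the PB libraries, 2.63 in PB+RA replicate 4 and 3.99 in DMSO replicate 3. Its means were 56.1 normalized reads in PB, 11.95 in RA, 17.4 in PB+RA and 20.7 in DMSO. CACNA2D1, an auxiliary calcium channel subunit, had 121, 30.9, 40.7 and 66.2, and KCNMA1, a calcium-activated potassium channel, 45.4, 10.4, 14.6 and 25.04. In all 3 of these the RA and PB+RA means were below DMSO. The sodium channel genes SCN2A and SCN3B ran the other way, with RA minus DMSO differences of 0.40 and 0.47.

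Matrix and junction genes had one at 6 of 33 (6 of 337 regions, 1.78%). In an intron of LAMA2, a laminin chain gene, the means were 47.9 normalized reads in PB, 7.51 in RA, 27.7 in PB+RA and 26.6 in DMSO, and the enrichment was 2.94, 3.91, 3.57 and 3.52 in the PB libraries with no other peak. LAMC1 had 47.6, 20.7, 28.4 and 20.7. The cadherin genes CDH18, CDH10 and CDH2 and the protocadherin gene PCDH15 had PB minus DMSO differences of 0.93, 0.63, 0.33 and 1.12, each with a PB+RA minus DMSO difference below 0.

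The other lists held 2 genes or fewer each. Genes with many regions had more chances to hold one, so shares of regions are given beside the counts. Of 20 retinoic acid response genes, 2 had a region in the set (2 of 168 regions, 1.19%). These were MEIS2, a homeobox gene, with 25.1 normalized reads in PB, 12.0045 in RA, 16.2 in PB+RA and 11.5 in DMSO, and ALDH1A2, a gene of retinoic acid synthesis, with 31.8, 11.2, 11.4 and 22.7. Lysosome and autophagy genes had 1 of 20 (1 of 99 regions, 1.01%), MAP1LC3B, whose PB minus DMSO difference was -0.03. The share of regions was below the overall 0.756% in the adrenergic core circuit, with 1 of 20 genes (INSM2) and 1 of 249 regions, in dense-core vesicle genes, with 1 of 22 (CADPS) and 1 of 211, and in mesenchymal state genes, with 1 of 29 (TEAD1) and 1 of 200. E2F target and cell cycle genes had 0 of 44, over 147 regions. None was found among 17 G1 regulators and CDK inhibitors (88 regions), 17 neural crest and Schwann genes (85), 14 interferon and antigen presentation genes (48), 16 housekeeping genes (75), 7 immune genes (22) and 8 endothelial genes (38). Lists with 0 or 1 region in the set are too small to be told apart from the overall share of 0.756%.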

How the data were processed

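The sample titles gave each library's group and replicate number. The treatment label names 1 µM palbociclib for every sample, RA and DMSO included, and the dose was read as that of the PB and PB+RA groups. Per the submitters' processing notes, the authors used fastp 0.12.4, Bowtie2 2.4.4, MACS2 2.2.7.1 and DiffBind 3.4 with hg19. The study's methods give another Bowtie2 release, broad peaks with input as reference, and consensus regions from at least 2 of 4 replicates of a condition. The authors' peak lists, made per library, hold a ratio (fold enrichment over input) and −log10 q, with no peak above q of about 0.1. The 3 deposited comparison tables hold the authors' mean log2 concentration per group, normalized before deposit, over 92108 regions. The DMSO means were identical in the 3 tables, so group means were compared across them. The tables also hold the authors' combined concentration, log2 fold, p-value and FDR, which were not used.

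Overlaps, differences of group means, distances and base composition were computed in Python 3.11.15 with numpy 2.4.6 and pandas 2.3.3. The overlap step was tested on simulated data. The reference was GRCh37 with GENCODE 44 lifted to it, holding 78714 protein-coding start sites. Region coordinates are as deposited, with starts counting from 0, and printed sequences count from 1. The 16 regions on other sequence names have no sequence or gene values. Depth is unknown, and a shallow library can lack a peak without less acetylation. No test was made, because the peaks chose the regions and the tables hold group means.

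Regions named are the 10 with 4 of 4 PB and 0 of 12 other libraries and the largest PB mean minus the largest other mean, the 8 within 3 kb of a start site by the same measure, genes with 3 or more regions, up to 6 genes per list (18 lists, of which 17 are reported), the 5 highest and 5 lowest PB+RA minus DMSO differences, and the ends of ranges. Some genes and 2 sequences that these rules pick are not reported here. GAP43, the runs of neighbouring regions and the DDX18 domain were named after their values were seen. The members and lists were chosen with earlier results of these data known.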

Additional observations from a re-analysis of the deposited data

Results flagged for a closer look

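The median enrichment over input of the peaks over the 944 regions was 3.04 in PB+RA replicate 2, against 2.87 to 2.90 in the other 3 PB+RA libraries, a gap to the nearest of 0.842 of the group's range. It rests on 61 peaks, and 16 such groups of 4 libraries were compared, of which chance picks out about 1 in 20.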

How the results depend on the processing

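Peaks with a −log10 q of at least 5 gave 203 regions at 133 genes, median differences of 0.56 for PB minus DMSO, -0.21 for PB+RA minus DMSO, -0.66 for RA minus DMSO and 0.40 for PB+RA minus RA, 7.39% with PB+RA minus DMSO over 0.5, 8.87% within 3 kb of a start site and a median GC of 43.6%. Asking for 4 of 4 PB and 0 of 12 other libraries gave 45 regions at 21 genes, with 1.12, 0.0102, -0.40 and 0.39 for the same 4 differences, 2.22% near a start site and 40.7% GC. Peaks covering at least 50% of a region gave 0.78, -0.027, -0.43 and 0.43. Reading PB replicates 1 to 3 only, chosen after seeing the data, gave a median PB minus DMSO difference of 0.90, 40.7% GC and 309 genes. Centred on all regions that difference was 0.94. The share with PB+RA minus DMSO over the fold was 3.92% at a fold minimum of 1 and 28.8% at 0.25, and 0.847% of regions lay within 1 kb of a start site. Leaving out each of the 16 libraries in turn gave 979 to 2517 regions, 504 to 1202 genes, median differences of 0.66 to 0.85 for PB minus DMSO, -0.21 to 0.043 for PB+RA minus DMSO, -0.42 to -0.23 for RA minus DMSO and 0.15 to 0.35 for PB+RA minus RA, shares over the fold of 13.8% to 24.1%, shares near a start site of 3.63% to 7.15% and a median GC of 41.3% to 44.8%. The highest counts came without a PB library, where 2 of 3 PB peaks sufficed. The PB+RA minus DMSO median changed sign in 4 settings, at 0.0102 for 4 of 4 PB and 0 of 12 others and at 0.021, 0.043 and 0.0063 without PB+RA replicates 1, 3 and 4. The cause was not tested. The other 3 medians kept their sign in each setting run. The settings for all differences but PB minus DMSO were run after seeing the data. No paired analysis was possible because the results come from no test and the group means carry no replicate values. Peaks were compared within replicate numbers as counts only.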
